A study of Mus musculus with 2 samples.

Results

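Ccl3, Ccl4, Ccl5 and Ccr1 were followed through single-cell RNA sequencing of mouse colon lamina propria. The 4 genes were found by their symbols among the 31053 features of the deposited matrices, and each symbol matched 1 feature. They were selected on their values in these same data: Ccl4 and Ccl3 stood among the highest ratios of knockout to wild type in resident macrophages, and Ccl5 was compared there by name, so those values are given as a description. The deposited data hold 2 libraries. Wild-type mice gave the WT library, and the KO library came from a knockout of a long non-coding RNA, LncRNA17Rik in the labels and lncLy6c in the study. No other allele or agent is given for either genotype, the knockout was on a C57BL/6J background, and each library was made from pooled young adult male mice, whose colon cells were enriched on Percoll, stained for sorting and cleared of dead cells with the dye 7-AAD. With 1 library for each genotype no difference has a replicate check, mouse, library and genotype cannot be told apart, and every interval below is a 95% interval that covers counting error only.

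CC chemokines are small secreted proteins that draw leukocytes along a gradient through G protein-coupled receptors. Ccl3 (macrophage inflammatory protein 1 alpha) and Ccl4 (macrophage inflammatory protein 1 beta) are made quickly by macrophages, neutrophils and lymphocytes after stimulation. Ccl5 (RANTES) is a hallmark of cytotoxic T cells and natural killer (NK) cells and is also made by activated macrophages and dendritic cells. Ccr1, found on neutrophils, monocytes and macrophages, is a receptor for Ccl3 and Ccl5.

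In the GENCODE M21 annotation of GRCm38, Ccl3 (ENSMUSG00000000982) lies on the minus strand at chr11:83647844-83649355 with 3 exons, and Ccl4 (ENSMUSG00000018930) on the plus strand at chr11:83662584-83664683 with 3 exons. The neighbours point away from each other across 13228 bases. Ccl5 (ENSMUSG00000035042) lies on the same chromosome at chr11:83525778-83530518 on the minus strand, with 2 transcripts of 2 and 3 exons. Ccr1 (ENSMUSG00000025804) has 2 exons and lies on the minus strand at chr9:123962124-123968692. The 250 bases before the transcript start in RefSeq (GRCm38.p6) are shown for a ligand whose level differed between the libraries in macrophages and for the receptor, whose level differed little there. Both are written 5′ to 3′ along the gene, from chr11:83649379-83649628 and chr9:123968693-123968942, and capitals mark the motif matches described beneath them.

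Ccl3: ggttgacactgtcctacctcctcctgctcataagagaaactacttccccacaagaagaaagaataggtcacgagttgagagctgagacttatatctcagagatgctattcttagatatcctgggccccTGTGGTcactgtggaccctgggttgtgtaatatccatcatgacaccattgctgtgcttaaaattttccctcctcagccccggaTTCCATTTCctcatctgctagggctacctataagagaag

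Ccr1: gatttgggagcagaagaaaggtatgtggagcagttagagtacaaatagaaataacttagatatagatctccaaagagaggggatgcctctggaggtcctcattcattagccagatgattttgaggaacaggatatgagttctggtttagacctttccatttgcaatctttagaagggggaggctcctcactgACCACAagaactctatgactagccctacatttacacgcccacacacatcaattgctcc

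Searched on both strands were the letters TGANTCA (the AP-1 motif), TTGCNNAA (C/EBP), GAAANNGAA (interferon regulatory factors), TGTGGT (Runx factors) and the kappaB consensus. The Ccl3 sequence held 1 match to GAAANNGAA on the opposite strand, beginning 39 bases before the transcript start, and 1 match to TGTGGT beginning 122 bases before it. The Ccr1 sequence held 1 match to TGTGGT on the opposite strand, 58 bases before the start. Of 32851 RefSeq promoters cut to the same window, 7.13% held GAAANNGAA and 14.1% held TGTGGT. The kappaB consensus (in 3.90% of promoters), TGANTCA (in 6.75%) and TTGCNNAA (in 9.56%) were absent from both windows. A match is a run of letters and not a measured binding site.

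The WT library held 3185 barcodes and 22191774 unique molecular identifiers (UMIs, each standing for 1 captured transcript), and the KO library 3020 barcodes and 23384895 UMIs. After the study's filter, 2597 WT and 2514 KO cells remained, with medians of 5073 and 6564.5 UMIs, and no barcode of a kept cell occurred in both libraries. The gene that matches the study's primers, 1700016P04Rik, had 0 UMIs in both and so gave no check of the genotypes. Of 20 clusters, 4 stayed unnamed and the rest formed 13 classes, called "-like" after their markers except 1 called intermediate. The labels describe the cells as cd11b+, the protein encoded by Itgam, yet B, plasma, T, epithelial and fibroblast classes were present. Itgam stood at 267 counts per 1000000 UMIs (CPM) in WT inflammatory monocyte-like cells and at 4.37 CPM in WT epithelial-like cells. UMIs of 8 immunoglobulin genes, which plasma cells express, summed to 2107 CPM in WT against 169 CPM in KO resident macrophage-like cells, and plasma cell-like cells numbered 236 in WT and 5 in KO. The immunoglobulin sum was lower in KO in every class and unnamed cluster but plasma cell-like cells (387182 against 426007 CPM), in T cell-like cells at 11318 against 139 CPM. With mitochondrial and immunoglobulin UMIs left out of the totals, resident macrophage-like log2 ratios of KO to WT were 2.73 for Ccl3 and 3.04 for Ccl4. They were 2.72 and 3.04 with these UMIs counted. In T cell-like cells the Ccl4 ratio was -4.24 against -4.23. Any other part of immunoglobulin RNA in the results was not tested.

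Over all kept cells, Ccl3 stood at 203 CPM (197 to 210) in WT against 704 CPM (693 to 715) in KO, and Ccl4 at 301 CPM (293 to 309) and 1519 CPM (1503 to 1535). Ccl5 went the other way, from 636 CPM (625 to 648) in WT to 435 CPM (426 to 444) in KO, and Ccr1 stood at 170.05 CPM (164 to 176) and 259 CPM (252 to 266). Each of these pooled values mixes cell classes whose sizes differed between the libraries. The classes were therefore examined one at a time.

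**Figure D1:**
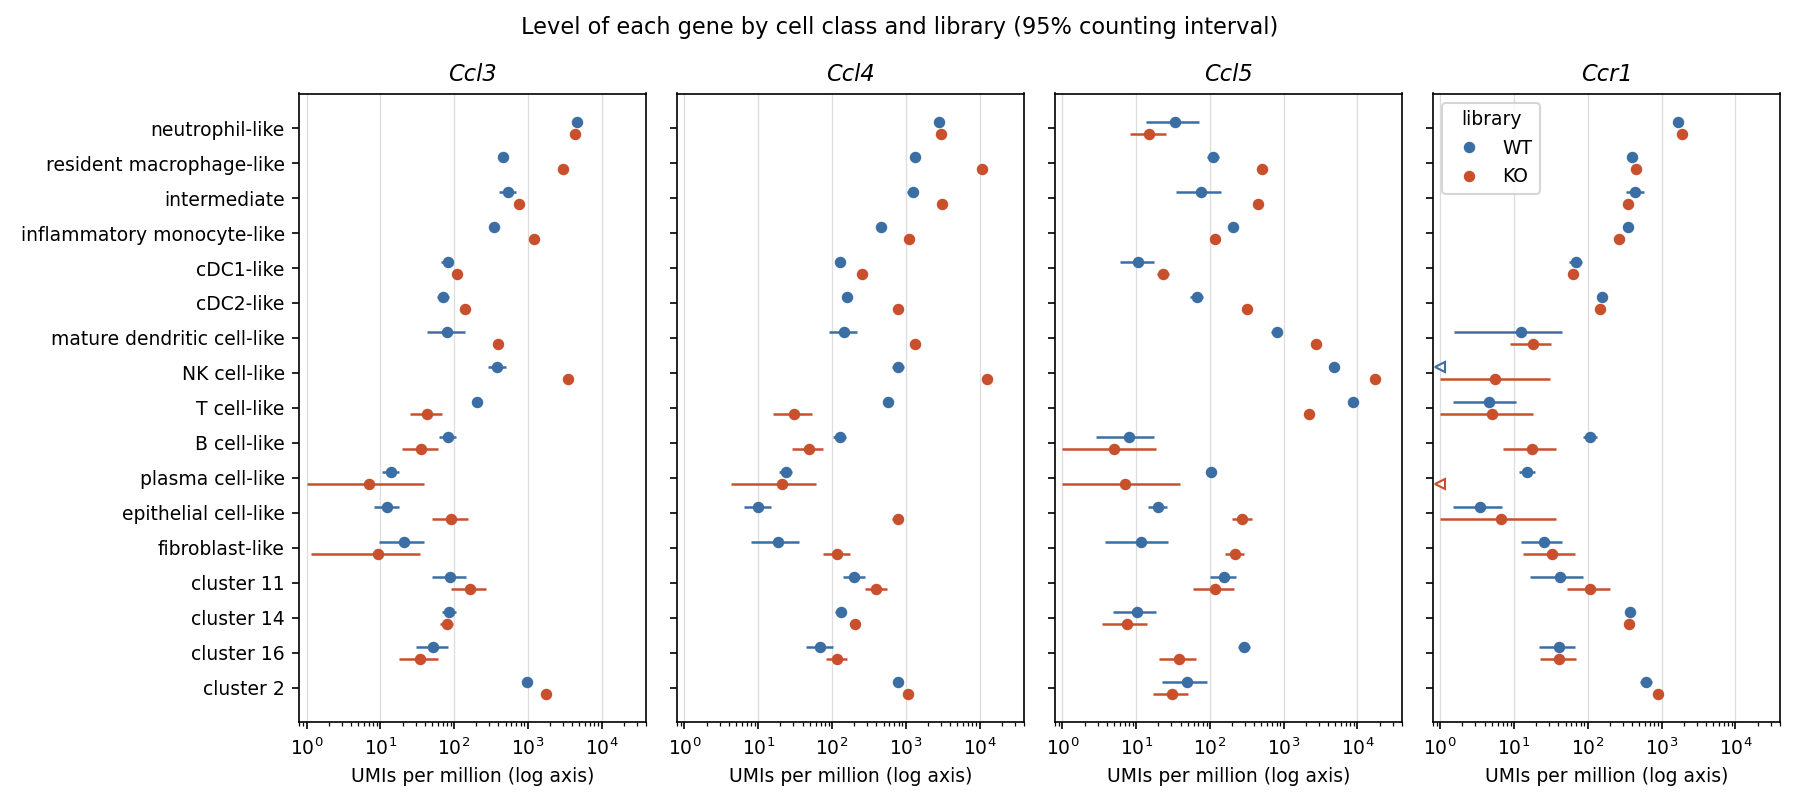
Level of each gene in CPM (x axis, log scale) in every cell class (y axis) of the WT (blue) and KO (orange) library. Points are levels, lines are 95% counting intervals, and open triangles at the left edge mark a class with 0 UMIs. Ccl3 reached 4706 CPM in WT and Ccr1 1879.9 CPM in KO neutrophil-like cells, and Ccl4 and Ccl5 reached 12714 and 17507 CPM in KO NK cell-like cells.

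Ccl3 was highest in neutrophil-like cells of both libraries. The neutrophil-like level was 4706 CPM (4414 to 5012) in 80 WT cells and 4302 CPM (4170 to 4437) in 270 KO cells, a log2 ratio of KO to WT of -0.13 (-0.23 to -0.03) whose sign changed in 4 of 11 alternative settings. Behind it in WT came the unnamed cluster led by Serpinb2, Ccr3 and Retnlg at 982 CPM, whose cells were shallow (medians of 754 WT and 970.5 KO UMIs). In KO the next classes were NK cell-like cells at 3466 CPM (3202 to 3745) and resident macrophage-like cells at 3001 CPM (2901 to 3104). Of the 16 neighbouring pairs in the order of all classes, 12 in WT and 8 in KO had overlapping intervals.

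In resident macrophage-like cells, marked by C1qa, C1qb, C1qc and Apoe, Ccl3 counted 465 UMIs over 160 WT cells and 3377 UMIs over 128 KO cells. The levels were 456 CPM (416 to 500) in WT against 3001 CPM in KO, a 6.58-fold difference (log2 ratio 2.72, 2.58 to 2.86). The median cell held 1 UMI in WT and 9 in KO, the highest decile began at 9.1 and 84.6 UMIs, and the highest cell held 36 and 345. Thus the KO cells were higher at the median, at the upper decile and at the top. The top 5 cells held 26.7% of Ccl3 UMIs in WT and 26.9% in KO.

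Inflammatory monocyte-like cells, marked by Ly6c2, Ccr2 and Plac8, also held more Ccl3 in KO, 1213 CPM (1175 to 1252) against 347 CPM (329 to 366) in WT. The log2 ratio was 1.81 (1.72 to 1.89). This class joins 3 clusters that the libraries filled unequally. Cluster 1, which kept C1qa at 1058 CPM in WT, held 638 of the 716 WT cells and 48 of the 386 KO cells. Cluster 4, led by Chil3 and Ace, held 60 WT and 301 KO cells, and cluster 20, with Rsad2 and Ifit3 among its leading genes, held 18 and 37. Within single clusters the Ccl3 ratio was smaller than over the class in clusters 1 and 4. Its log2 value was 0.94 (0.68 to 1.18) in cluster 1, 1.03 (0.84 to 1.23) in cluster 4 and 1.75 (1.27 to 2.25) in cluster 20. Each of the 3 clusters held more Ccl3 in KO. Marker genes also differed between the libraries within a cluster. In clusters 1, 4 and 20 the log2 ratio was -1.06, -2.23 and -5.79 for C1qa. For Ly6c2 it was -1.36, -0.19 and -0.33, and for Chil3 0.03, -1.14 and 2.41. C1qa rests on 9 WT and 14 KO UMIs in cluster 4 and on 2 KO UMIs in cluster 20. The within-cluster ratios of all 4 genes are therefore not between cells alike in these markers.

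Ccl3 in lymphocytes pointed both ways. NK cell-like cells held 385 CPM (293 to 498) in WT against 3466 CPM in KO, 9.0-fold more, from 26 and 41 cells, and in KO the top 5 cells carried 54.0% of the UMIs. T cell-like cells held 205 CPM (179 to 233) in WT against 43.0 CPM (25.1 to 68.9) in KO, but those without a Cd8a, Gzma or Gzmb UMI held 20.4 CPM (4.21 to 59.7) and 47.2 CPM (25.8 to 79.1), from 3 and 14 UMIs. Ccl3 stood at 70.6 CPM in WT against 138 CPM in KO cDC2-like cells and at 81.6 and 108 CPM in cDC1-like cells. Mature dendritic cell-like cells held 81.2 CPM (43.3 to 139) in WT against 394 CPM (346 to 447) for KO, where 5 of 40 cells carried 77.7% of the UMIs.

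**Figure D2:**
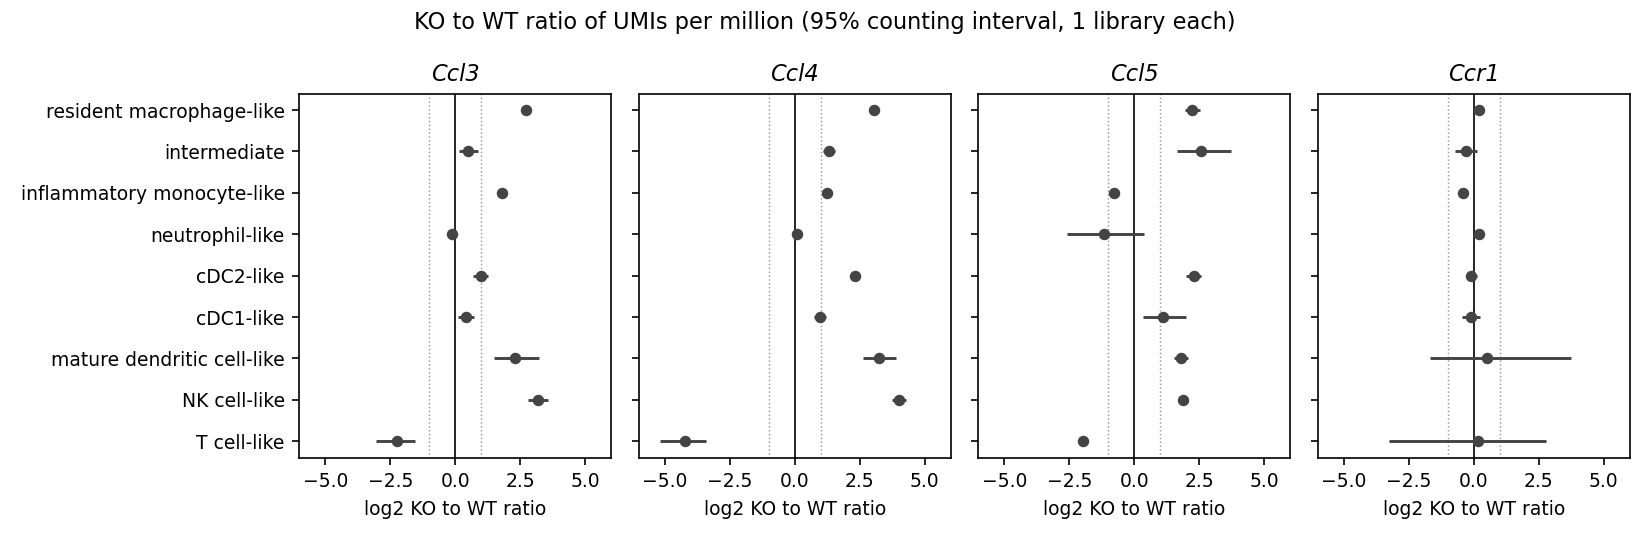
Ratio of KO to WT level (x axis, log2) of each gene in 9 myeloid and lymphoid classes (y axis). Points are ratios from 1 library per genotype, lines are 95% counting intervals, solid lines mark no difference and dotted lines a 2-fold difference. Ccl4 ran from -4.23 in T cell-like to 4.0 in NK cell-like cells, while Ccr1 stayed between -0.43 and 0.52 in the 8 classes with a value.

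Ccl4 showed the widest contrast between the libraries. Resident macrophage-like cells counted 1363 UMIs in WT and 12340 in KO, or 1337 CPM (1267 to 1410) and 10967 CPM (10774 to 11162). This was an 8.20-fold difference (log2 ratio 3.04, 2.96 to 3.12), which placed Ccl4 at rank 14 and Ccl3 at rank 22 from the top of 7396 genes with at least 20 UMIs. The median WT cell held 1 Ccl4 UMI and the median KO cell held 51.5. At least 20 UMIs were found in 18 of 160 WT and 80 of 128 KO cells, and at least 100 UMIs in 2 WT and 36 KO cells. WT cells were also more uneven, with 38.1% of UMIs in the top 5 cells against 24.9% in KO. Without the 5 top cells of each library the log2 ratio was 3.35, so it did not rest on them. Over all 539 WT and 295 KO cells with at least 3 C1q UMIs, a set chosen after seeing the data, the log2 ratios were smaller, at 2.84 for Ccl4, 2.04 for Ccl3 and 1.27 for Ccl5.

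Among all resident macrophage-like genes, 3.83% were at least 2-fold higher and 10.0% at least 2-fold lower in KO (prior of 1 CPM), with a median log2 ratio of -0.25. Of the 4 genes, Ccl3, Ccl4 and Ccl5 were past 2-fold higher, Ccr1 lay within 2-fold, and none was past 2-fold lower. The genes were chosen with this contrast known, so their count is not read against the background. Summed CPM of 17 dissociation stress genes was 17609 in WT and 18964 in KO cells of this class, and 2 of the 17 were past 2-fold higher. Their median log2 ratio was 0.39 against -0.25 over all genes and 0.37 for the activation genes described below. Whether handling of the tissue had a part in the Ccl3 and Ccl4 levels was not tested.

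The Ccl4 difference was present but smaller in inflammatory monocyte-like cells, at 467 CPM (447 to 489) in WT against 1101 CPM (1065 to 1138) in KO. Its log2 ratio was 1.24 (1.15 to 1.32) over the class, 2.43 (2.29 to 2.56) in cluster 1, 1.43 (1.15 to 1.73) in cluster 4 and 1.38 (1.12 to 1.64) in cluster 20, each above the value of the joined class. The intermediate cluster, with equal numbers of raised macrophage and monocyte markers and led by Retnla, Ccl24 and Lpl, held 1246 CPM (1054 to 1462) in 16 WT cells and 3101 CPM (3016 to 3188) in 139 KO cells. In the monocyte class 3.11% of 9335 genes were past 2-fold higher and 8.72% past 2-fold lower in KO, and Ccl3 and Ccl4 were 2 of those higher. Ccl5 and Ccr1 lay within 2-fold.

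In neutrophil-like cells Ccl4 stood at 2793 CPM (2570 to 3032) in WT against 2999 CPM (2889 to 3112) in KO (log2 ratio 0.10, -0.03 to 0.23). The Ccl4 ratio ranged from 0.03 to 0.58 over 11 alternative settings, and without the 5 top cells of each library it was 0.58 (0.41 to 0.76). In this class 7.15% of genes were past 2-fold higher and 12.2% past 2-fold lower in KO. Of the 4 genes only Ccl5, with 7 WT and 14 KO UMIs, passed 2-fold, downward, and its interval reached above 0. For Ccl3 and Ccl4 the ratio here lay nearer 0 than in resident macrophage-like, inflammatory monocyte-like, NK cell-like, T cell-like or cDC2-like cells.

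NK cell-like cells went from 797 CPM (661 to 953) of Ccl4 in WT to 12714 CPM (12204 to 13240) in KO (log2 ratio 4.0, 3.73 to 4.27). With cells classed by their highest marker score (70 WT and 68 KO cells) the log2 ratio was smaller, at 2.77 for Ccl4 and 2.45 for Ccl3. The median cell held 3 and 31 UMIs. Ccl3, Ccl4 and Ccl5 were all past 2-fold higher in this class, where 6.71% of 2505 genes were higher and 5.99% lower, and Ccr1 was too low to be counted. T cell-like cells ran the opposite way, with 568 CPM (524 to 615) of Ccl4 in WT and 30.4 CPM (15.7 to 53.1) in KO. With cells classed by their highest marker score the T cell-like log2 ratio of Ccl4 was -1.03 instead of -4.23. The T cell class also differed in make-up between the libraries, as described with Ccl5, and in its cells without a Cd8a, Gzma or Gzmb UMI Ccl4 stood at 95.4 CPM (52.1 to 160) in WT against 33.7 CPM (16.2 to 62.0) in KO. Over the whole class the ligands were all past 2-fold lower in KO, as were 20.9% of 6554 genes, while 4.61% were higher. cDC2-like cells, marked by Cd209a and Mgl2, went from 157 CPM (138 to 178) of Ccl4 in WT to 786 CPM (764 to 809) in KO (log2 ratio 2.32, 2.13 to 2.51, and 1.71 to 2.91 over 11 alternative settings). In that class 3.96% of genes were past 2-fold higher and 6.73% lower in KO, and Ccl4 and Ccl5 were among those higher.

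A few cells can carry a level. The Ccl4 level of 776.8 CPM in KO epithelial-like cells came from 118 UMIs over 17 cells, of which 115 lay in 1 cell. Likewise the Ccl5 level of 221 CPM in KO fibroblast-like cells came from 47 UMIs, all in 1 of 21 cells. Mature dendritic cell-like cells of KO held 1352 CPM (1262 to 1447) of Ccl4, but 83.0% of it lay in 5 of 40 cells.

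**Figure D3:**
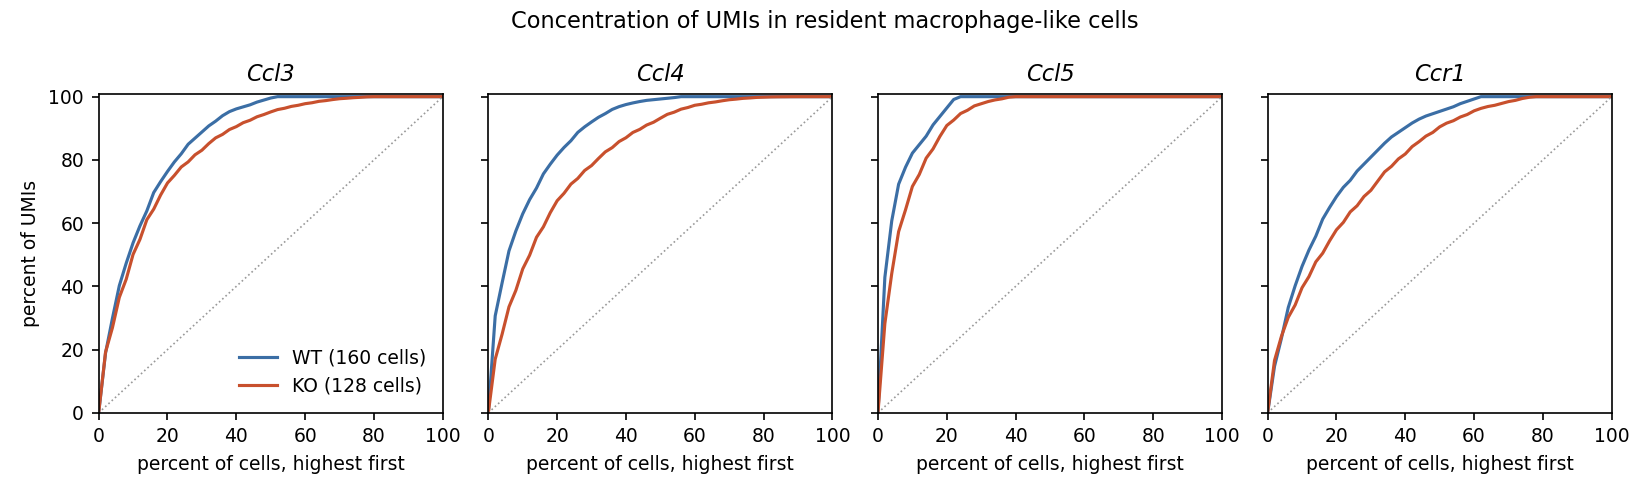
Share of each gene's UMIs (y axis, percent) held by a growing share of resident macrophage-like cells ordered from the highest count (x axis, percent), in WT (blue, 160 cells) and KO (orange, 128 cells). The dotted line marks equal counts in every cell. The top 10% of cells held 63.0% of Ccl4 UMIs in WT and 45.5% in KO, and for Ccl5 82.1% and 71.6%.

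Ccl5 was highest in T, NK and mature dendritic cell-like cells of both libraries. The lowest value in each was that of B cell-like cells, from 6 WT and 2 KO UMIs, with an interval that overlapped those of other low classes. In WT, T cell-like cells held 8709 CPM (8535 to 8886), followed by NK cell-like cells at 4842 CPM (4497 to 5207) and mature dendritic cell-like cells at 800 CPM (667 to 951). In KO the order was NK cell-like cells at 17507 CPM (16908 to 18123), mature dendritic cell-like cells at 2777 CPM (2647 to 2912) and T cell-like cells at 2205 CPM (2061 to 2356). The intervals of these 3 classes did not overlap within either library. T cell-like cells supplied 78.8% of all WT Ccl5 UMIs and 8.97% of KO Ccl5 UMIs, whereas NK cell-like cells supplied 6.03% and 33.1%. The NK cell-like log2 ratio of Ccl5, 1.85, ranged from 0.05 to 2.52 over 11 alternative settings.

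The T cell class had a different make-up in each library. A UMI of Cd8a, Gzma or Gzmb, genes of cytotoxic T cells, was found in 136 of 169 WT and 14 of 63 KO cells. In cells with such a UMI, Ccl5 stood at 9951 CPM (9751 to 10153) in WT against 2505 CPM (2202 to 2839) in KO. In cells without one it stood at 695 CPM (566 to 843) in WT against 2106 CPM (1944 to 2277) in KO. KO was lower in the first set, where it rests on 14 cells, and higher in the second. The unnamed cluster led by Icos, Rora and Tnfsf11 also raised 9 of 10 T cell markers and lay outside this class. Its Ccl5 was lower in KO, at 291 CPM (237 to 353) in WT against 37.8 CPM (20.1 to 64.7) in KO.

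Resident macrophage-like cells held 109.9 CPM (90.5 to 132) of Ccl5 in WT against 516 CPM (475 to 560) in KO, a 4.70-fold difference (log2 ratio 2.23, 1.94 to 2.54). The median cell held 0 UMIs in both libraries, and 5 cells carried 56.2% of the WT and 44.1% of the KO UMIs. In the intermediate cluster the levels were 75.2 CPM (34.4 to 143) and 447 CPM (415 to 481). cDC2-like cells held 66.1 CPM (53.9 to 80.2) in WT against 321 CPM (307 to 335) in KO. Their log2 ratio of 2.28 ranged from 2.02 to 3.35 over 11 alternative settings and was highest without the 5 top cells of each library. The summed level was higher in KO in these 3 myeloid groups. How the shares of cells with Ccl5 compare with those in cells taken as background is given with the thinned cells.

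Inflammatory monocyte-like cells appeared to differ, with 205 CPM (192 to 220) of Ccl5 in WT and 119 CPM (107 to 132) in KO (log2 ratio -0.79, -0.97 to -0.61). Within its clusters, however, Ccl5 was not lower in KO. It stood at 205 and 275 CPM in cluster 1 (log2 ratio 0.42, 0.04 to 0.78), at 5.44 and 31.7 CPM in cluster 4 (2.54, 0.65 to 5.61) and at 792 and 904 CPM in cluster 20 (0.19, -0.16 to 0.54). Cluster 4 rests on 2 WT UMIs. Cluster 4 had the lowest Ccl5 in both libraries and held 301 of the 386 KO cells but 60 of the 716 WT cells.

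**Figure D4:**
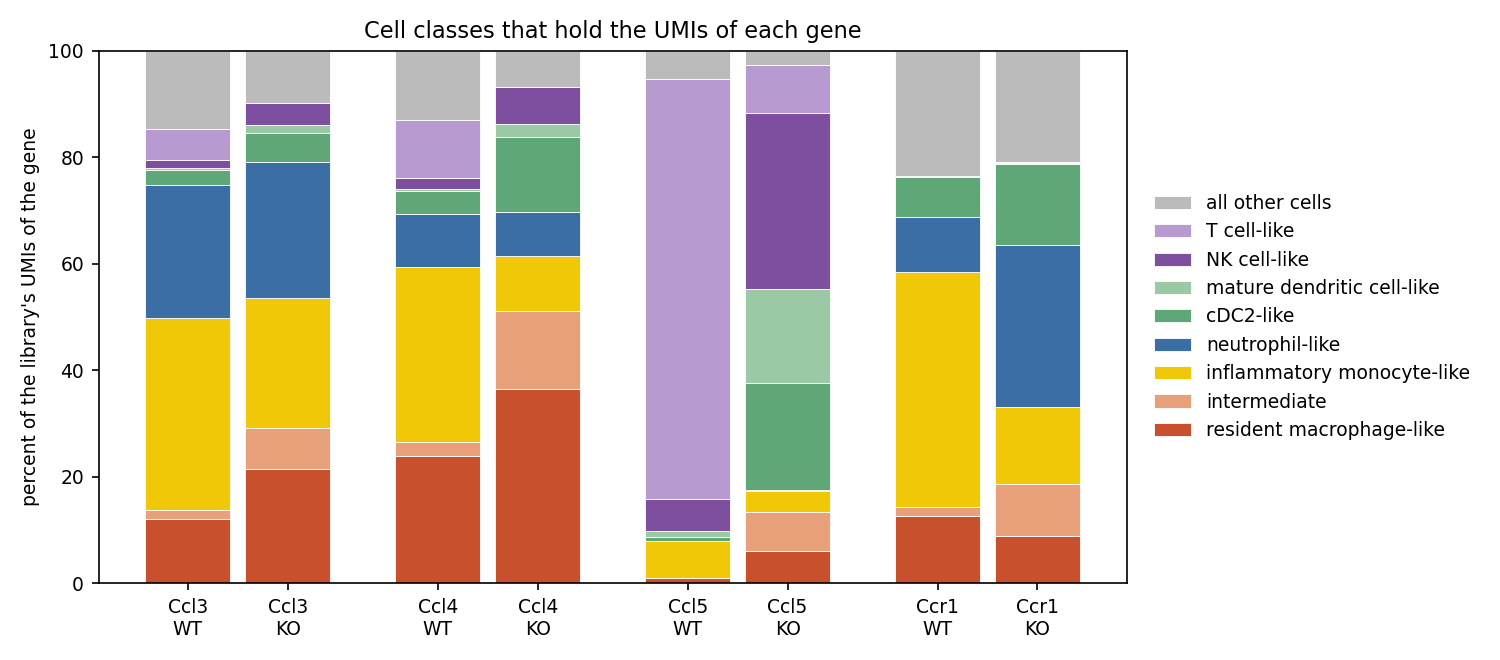
Share of each library's UMIs of a gene (y axis, percent) that lay in each cell class (colours), for the WT and KO library of each gene (x axis). Resident macrophage-like cells held 23.9% of WT and 36.4% of KO Ccl4 UMIs, and T cell-like cells held 78.8% of WT and 8.97% of KO Ccl5 UMIs.

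The receptor Ccr1 differed less between the libraries than the ligands did in resident macrophage-like cells. It was highest in neutrophil-like cells, at 1649.7 CPM (1479 to 1835) in WT against 1879.9 CPM (1793 to 1970) in KO (log2 ratio 0.19, 0.02 to 0.36). With each library clustered alone that ratio was -0.21 (-0.38 to -0.05), so its sign depended on the clustering. The unnamed cluster led by Serpinb2 and Ccr3 followed at 618 and 895 CPM. Resident macrophage-like cells, the intermediate cluster, the unnamed cluster led by Plet1 and Itgae and inflammatory monocyte-like cells came next in both libraries, the monocytes last of these 4, with overlapping neighbours in WT. Resident macrophage-like cells held 400.2 CPM (362 to 441) in WT against 456 CPM (417 to 497) in KO, and the interval of the log2 ratio of 0.19 ran from -0.0023 to 0.38. Its sign changed in 4 of 13 alternative settings. This interval leaves out any difference as large as that of Ccl3, Ccl4 or Ccl5 in the same cells. Inflammatory monocyte-like cells held 354 CPM (336 to 373) in WT against 263 CPM (245 to 281) in KO (log2 ratio -0.43), but the ratio was -0.11 (-0.45 to 0.21) in cluster 1, -0.04 (-0.35 to 0.29) in cluster 4 and 0.26 (-0.28 to 0.83) in cluster 20, each with an interval across 0.

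The named dendritic and lymphoid classes held less Ccr1 than inflammatory monocyte-like cells in both libraries. cDC2-like cells stood at 155 CPM (136 to 176) in WT against 145 CPM (135 to 154) in KO, and cDC1-like cells at 68.8 and 63.4 CPM. The unnamed cluster led by Plet1 and Itgae stood higher, at 375 and 360.2 CPM. The marker list it raised most was that of cDC2 (Cd209a, Irf4 and Flt3), and its KO level lay above that of the monocytes. B cell-like cells held 108 CPM (85.9 to 134) in WT against 17.8 CPM (7.14 to 36.6) for KO, from 82 and 7 UMIs (log2 ratio -2.60), and 5 WT cells carried 42.7% of theirs. T cell-like cells counted 5 WT and 2 KO UMIs, and NK cell-like cells 0 and 1. The receptor of Ccl3 and Ccl5 was therefore near 0 in the lymphoid classes with the most Ccl5. Neutrophil-like cells supplied 10.5% of WT and 30.4% of KO Ccr1 UMIs, and numbered 3.08% of WT and 10.7% of KO cells.

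Shares of cells with a UMI depend on depth, so each cell was also thinned to 1000 UMIs, which left out 339 WT and 308 KO cells. For resident macrophage-like cells (medians of 4894.5 WT and 7117 KO UMIs, 20 and 6 cells left out), Ccl3 was found in 51.2% of WT and 79.7% of KO cells before thinning. After thinning it was found in 27.9% (20.6 to 36.1%) and 59.8% (50.6 to 68.6%). Ccl4 was found in 56.2% and 89.1% of cells before thinning and in 40.0% (31.8 to 48.6%) and 82.8% (74.9 to 89.0%) after it. Ccl5 was found in 22.5% and 39.1% of cells before thinning and in 7.86% (3.99 to 13.6%) and 22.1% (15.1 to 30.5%) after it. Ccr1 was found in 32.1% (24.5 to 40.6%) and 37.7% (29.1 to 46.9%) of thinned cells, from 61.9% and 76.6% unthinned, and these intervals overlapped. The ligands thus differed in how many cells held them as well as in their summed level.

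Free RNA gives UMIs in cells that do not make a transcript. In thinned WT epithelial-like cells (median of 15503 UMIs before thinning), 0.990% of 101 cells held a UMI of Ccl3, of Ccl4 and of Ccr1, and 1.98% one of Ccl5. Among 15 thinned KO epithelial-like cells (median of 4967) no cell held Ccl3 or Ccr1, which allows a share of up to 20.0% by a limit of 3 counts and 21.8% by the Clopper-Pearson interval, and the 1 cell with Ccl4 is the cell with 115 UMIs described above, so this small class gives no background value for Ccl4. Ccl5 was found in 3.95% of WT and 1.91% of KO thinned neutrophil-like cells (medians of 2272 and 3025), and Ccr1 in 6.84% of WT and 1.19% of KO thinned B cell-like cells (medians of 2931 and 4394). The thinned Ccl5 share of 7.86% in WT resident macrophage-like cells (3.99 to 13.6%) overlapped the interval of the WT neutrophil-like share (0.822 to 11.1%, from 76 cells) but lay above that of WT B cell-like cells, where 0 of 190 cells held Ccl5 (up to 1.58% by a limit of 3 counts and 1.92% by the Clopper-Pearson interval). WT cDC2-like cells at 5.06% (2.21 to 9.73%) stood in the same way to both. The WT intermediate cluster at 6.25% (0.158 to 30.2%), with 16 cells, overlapped both. All 3 of these WT intervals overlapped that of WT epithelial-like cells (0.241 to 6.97%). In KO these 3 shares were 22.1%, 23.7% (16.8 to 31.8%) and 12.9% (9.83 to 16.5%), and their intervals lay above those of KO neutrophil-like and KO B cell-like cells. The thinned Ccr1 shares in cDC1-like cells were 2.68% (0.556 to 7.63%) in WT and 3.36% (1.62 to 6.08%) in KO. Each interval overlapped that of B cell-like cells of its library (3.69 to 11.4% in WT, 0.0301 to 6.46% in KO). No difference in share between these classes was therefore detectable at this depth. The summed Ccr1 level of cDC1-like cells was nevertheless above that of B cell-like cells in KO, at 63.4 CPM (56.7 to 70.6), and below it in WT, at 68.8 CPM (55.8 to 84.0).

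In thinned inflammatory monocyte-like cells, Ccl3 was detected in 22.1% (19.0 to 25.4%) in WT against 46.7% (41.5 to 52.0%) in KO, and Ccl4 in 22.2% (19.2 to 25.6%) and 38.3% (33.3 to 43.5%). Ccl5 was found in 9.72% (7.60 to 12.2%) and 6.52% (4.22 to 9.55%). Both overlapped the neutrophil-like interval of their library, but the WT share lay above the intervals of WT B cell-like and epithelial-like cells (0.241 to 6.97% for the latter), while the KO share overlapped that of KO B cell-like cells. Ccr1 was found in 25.6% and 19.0%. Neutrophil-like cells held Ccl3 in 77.6% of WT and 80.2% of KO thinned cells and Ccr1 in 64.5% and 78.6%. Of NK cell-like cells, 38.5% (20.2 to 59.4%) held Ccl4 in WT, with 26 cells, against 92.7% (80.1 to 98.5%) in KO, with 41 cells.

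Ccl3 and Ccl4 were often found in the same cells. Among thinned KO resident macrophage-like cells, Ccl4 was found in 69 of 73 cells with Ccl3 and in 32 of 49 cells without it. In WT the counts were 25 of 39 and 31 of 101. Ccl5 followed Ccl4 in KO, where 27 of 101 cells with Ccl4 and 0 of 21 without it held Ccl5. In WT, Ccl5 was found in 5 of 56 cells with Ccl4 and in 6 of 84 without it. Neutrophil-like cells of KO held Ccl4 in 117 of 210 cells with Ccl3 and in 14 of 52 without it, and Ccr1 in 164 of 210 and 42 of 52. For the receptor, KO resident macrophage-like cells held Ccr1 in 44 of 101 cells with Ccl4 and 2 of 21 without it, and WT cells in 19 of 56 and 26 of 84. Cells of 1 library share their source, so these counts are a description.

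Genes of the activation list were then read in the 10% of resident macrophage-like cells with the most Ccl4 per UMI, 16 WT and 13 KO cells. Their Ccl4 level was 8395 CPM in WT against 39891 CPM in KO, against 736 and 8492 CPM in all other cells of the class. The Ccl4-high cells were shallower, with medians of 3097.5 UMIs in WT and 6507 in KO against 5304 and 7390 in the others. Tnf, the gene of tumour necrosis factor, was higher in the Ccl4-high cells of both libraries, at 837 against 242 CPM in WT and 3755 against 1173 CPM in KO. Cxcl10, a chemokine induced by interferons, stood at 3673 against 288 CPM in WT and 3416 against 1273 CPM in KO. Ccl3 itself was 2.63-fold higher in these cells in WT and 3.22-fold in KO. Ccl5 was 2.79-fold higher in KO and stood at 4 UMIs in the WT Ccl4-high cells, while Ccr1 was 0.64 and 0.96 times the level of the other cells.

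Some activation genes moved with Ccl4 in 1 library and against it in the other. Il1b, the gene of interleukin 1 beta, stood at 487 CPM in Ccl4-high and 1827 CPM in other WT cells, and at 2255 and 1615 CPM in KO. Egr1, an early response gene, stood at 1662 and 811 CPM in WT and at 586 and 1283 CPM in KO. Ifnb1, the gene of interferon beta, had 0 UMIs in all 160 WT cells, and in KO it stood at 789 CPM in Ccl4-high and 190.1 CPM in other cells. Over the class, KO held 267 Ifnb1 UMIs, or 237 CPM. In inflammatory monocyte-like cells of KO, 163 of 167 Ifnb1 UMIs lay in the 39 cells with the most Ccl4 per UMI. Cells chosen on Ccl4 were compared here, so these values describe the company Ccl4 kept and carry no test.

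Between the libraries, the activation genes divided in resident macrophage-like cells. Of 16 genes, 7 were past 2-fold higher in KO and 1 was past 2-fold lower, beside 3.83% and 10.0% of all genes, with a median log2 ratio of 0.37 against -0.25 over all genes. Tnf stood at 288 CPM in WT against 1377 CPM in KO, Il1a at 57.9 and 278 CPM, and Cxcl2 at 5149 and 18019 CPM. Il12b, a subunit of interleukin 12, ran the other way, with 72 WT UMIs and 0 in KO. Il1b stood at 1721 and 1665 CPM, and Nfkbia, an inhibitor of NF-kappaB, at 1555 and 1601 CPM. The activation genes therefore did not move as 1 group. In inflammatory monocyte-like cells 6 of the 16 were past 2-fold higher and 0 lower, beside 3.11% and 8.72% of all genes, with a median of 0.47 against -0.19.

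The other CC chemokine genes were read from a list of 14 ligands and 10 receptors. In resident macrophage-like cells 13 of the 24 had at least 20 UMIs, and 5 of these were past 2-fold higher and 2 lower in KO, beside 3.83% and 10.0% of all genes, with a median log2 ratio of 0.97 against -0.25 over all genes. Those higher were Ccl2 and Ccl7, which draw monocytes through Ccr2, Ccl17 and Ccl22, ligands of Ccr4, and the receptor Ccr7. Ccl7 stood at 186 CPM in WT against 677 CPM in KO, and Ccl2 at 306 and 683 CPM. Ccl17 counted 6 WT and 121 KO UMIs. Those lower were Ccl8, at 171 CPM in WT against 14.2 CPM in KO, and the receptor Ccr2, at 377 and 163 CPM. Ccl6, Ccl9 and Ccl12, also with at least 50 UMIs, lay within 2-fold.

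In inflammatory monocyte-like cells 14 genes of the list were counted, 4 of them past 2-fold higher and 4 lower in KO, beside 3.11% and 8.72% of all genes, with a median log2 ratio of 0.02 against -0.19. Ccl2 stood at 240 CPM in WT against 848 CPM in KO, and Ccl7 at 45.5 and 261 CPM. Ccl8 again ran the other way, with 27 WT UMIs and 1 KO UMI, and Ccr7 stood at 208 and 55.7 CPM. Neutrophil-like cells had 5 genes counted, of which Ccl2, Ccl6 and Ccl9 were past 2-fold higher and Ccr2 lower, with a median log2 ratio of 1.12 against -0.15 over all genes, of which 7.15% were higher and 12.2% lower. cDC2-like cells had 13 counted, with 4 higher, among them Ccl17 at 47.9 CPM in WT against 552 CPM in KO, and 2 lower, and a median of -0.03 against -0.19, beside 3.96% higher and 6.73% lower over all genes.

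**Figure D5:**
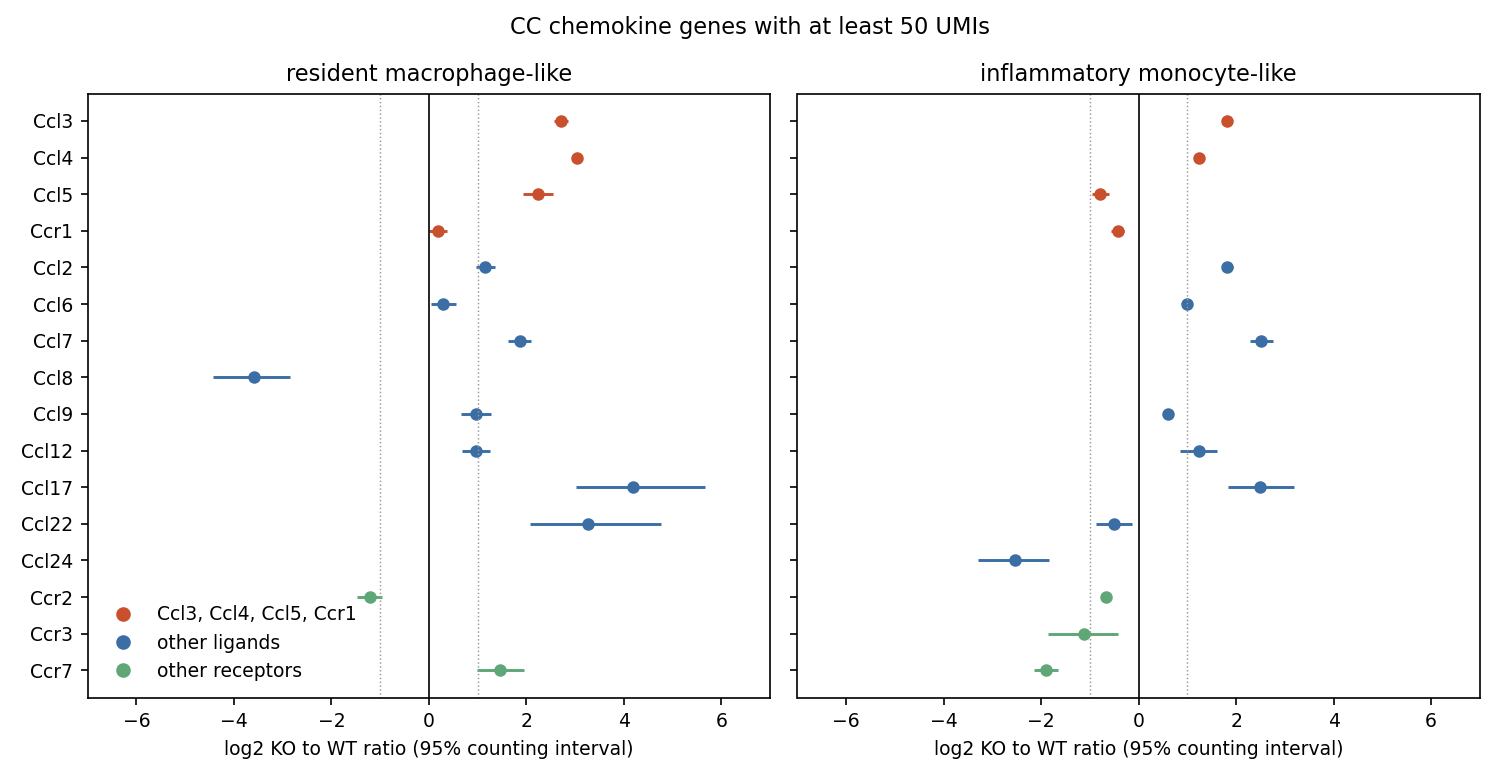
Ratio of KO to WT level (x axis, log2) of CC chemokine genes with at least 50 UMIs in the class, in resident macrophage-like (left) and inflammatory monocyte-like cells (right). Lines are 95% counting intervals, solid lines mark no difference and dotted lines a 2-fold difference, and colours separate the 4 genes, other ligands and other receptors. In the left panel Ccl4 lies at 3.04 and Ccl8 at -3.59.

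Over 25 profiles (a class in 1 library with at least 50 cells), Ccl3 and Ccl4 had the most similar patterns among the 4 genes, with a Pearson r of 0.93 on log2(CPM + 10). The profiles share libraries and depth, so this is a description. Ccl3 and Ccr1 gave r = 0.83, Ccl4 and Ccr1 0.78, Ccl4 and Ccl5 0.23, and Ccl5 and Ccr1 -0.28. Among 9485 genes with at least 200 UMIs, those most like Ccl3 were Il1a (0.93), Ccl4, Sdcbp (0.91), F630028O10Rik (0.91) and Slc11a1 (0.91). Those most like Ccl4 were Ccl3, Il1a (0.89), Rnf19b (0.86), Tnf (0.85) and Lilr4b (0.85). For Ccl5 they were Klra7 (0.76), Abcb1b (0.75), Nkg7 (0.75), Cd3g (0.74) and Klrc2 (0.74), which include T and NK cell genes. For Ccr1 they were Ninj1 (0.93), Pilrb2 (0.93), Ccrl2 (0.92), Ncf4 (0.92) and Pilrb1 (0.92). Ranked by Spearman's rho instead, 2 of the 5 genes remained for Ccl3, 4 for Ccl4, 1 for Ccl5 and 1 for Ccr1, so the lists for Ccl3, Ccl5 and Ccr1 depended on the measure.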

How the data were processed

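The deposited files were raw UMI counts per gene and barcode, 1 matrix per library, made by the authors with 10x 3′ chemistry; the file headers give software version 3.0.2, the submitters' processing notes list Seurat 4 and mm10, and the aligner is not given in the sources used here. The members and gene lists were chosen with earlier results of these data known. Cells with 200 to 6000 genes and at most 15% mitochondrial counts were kept, as in the study, whose own clustering was not used. Counts were log-normalised to 10000 per cell and clustered with scanpy 1.11.5 (2000 variable genes without CC chemokine genes, 30 components, 15 neighbours, Leiden resolution 1). A cluster was named after the marker list with the largest share of genes raised 2-fold in at least 10% of cells, with at least 3 raised. It stayed unnamed where more of its 10 leading genes lay on another list. No doublet caller was used, and removing the top 3% of Scrublet scores was an alternative. Levels are a gene's summed UMIs in a class of 1 library per 1000000 UMIs (CPM). Intervals were exact Poisson for levels, conditional binomial for ratios and Clopper-Pearson for shares. The ratio intervals were tried on simulated Poisson counts, the model they assume, without spread between cells. That trial therefore does not show how they hold where few cells carry a level. Over all genes, ratios used a prior of 1 CPM and at least 20 UMIs. Named genes were the 4 members, CC chemokine genes with at least 50 UMIs in a class, the activation genes, and the 5 genes most like each member by Pearson's r (Spearman's rho was an alternative). No test was run, since each genotype had 1 library. Libraries had 22191774 and 23384895 UMIs. Both matrices held fewer barcodes than the cells the study counted, the KO matrix by a little and the WT matrix several times fewer.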

Additional observations from a re-analysis of the deposited data

Results flagged for a closer look

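Among 8 myeloid and lymphoid classes, Ccl3, Ccl4 and Ccl5 were each past 2-fold higher in KO in at least 1 class and past 2-fold lower in another, with intervals off 0, and no difference between classes was tested. The highest and lowest ratio of each gene among them follow. Ccl3 had a log2 ratio of KO to WT of 3.17 in NK cell-like cells and -2.25 in T cell-like cells. Ccl4 had 4.0 and -4.23 in the same classes, and with cells classed by their highest marker score 2.77 and -1.03. Ccl5 had -1.98 in T cell-like cells and 2.57 in the intermediate cluster, where 16 WT cells held 9 UMIs. Of 6289 genes in that cluster, 941 were past 2-fold higher and 674 past 2-fold lower in KO. Each of the lower values is from T cell-like cells, where 20.9% of 6554 genes were past 2-fold lower and 4.61% higher in KO, and in NK cell-like cells 6.71% were higher and 5.99% lower. The T cell class differed in make-up, with a Cd8a, Gzma or Gzmb UMI in 136 of 169 WT and 14 of 63 KO cells. In its cells without one the log2 ratio was 1.21 (-0.63 to 3.65) for Ccl3, from 3 and 14 UMIs, an interval across 0. For Ccl5 it was 1.60 (1.30 to 1.92), the opposite direction to the whole class. Ccl4 kept the direction of the class in these cells, at 95.4 CPM in WT against 33.7 CPM in KO, from 14 and 10 UMIs. In its cells with one, Ccl3, Ccl4 and Ccl5 were each lower in KO, where Ccl3 rests on 3 UMIs and Ccl4 on 2. The NK cell-like values rest on 26 WT and 41 KO cells and the T cell-like values on 169 and 63 cells. Immunoglobulin genes summed to 1760.2 CPM in WT and 21.8 CPM in KO NK cell-like cells, and the 17 dissociation stress genes to 14148 and 11000.5 CPM. With mitochondrial and immunoglobulin UMIs left out of the totals, the NK cell-like log2 ratio was 3.15 for Ccl3 and 3.97 for Ccl4. Any other part of the immunoglobulin and stress genes in the results was not tested.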

How the results depend on the processing

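Ccl3, Ccl4 and Ccl5 were higher in KO in resident macrophage-like cells under each of 13 alternatives, with log2 ratios of 1.85 to 2.99, 2.26 to 3.52 and 1.27 to 2.66, and so were Ccl3 (0.94 to 1.99) and Ccl4 (0.89 to 2.43) in inflammatory monocyte-like cells under each of 14. Ccl5 kept its sign in 11 of 14 in monocytes and Ccr1 in 9 of 13 in resident cells, while Ccr1 in monocytes was below 0 in 14 of 14, with intervals across 0 in 6 of them, and was 0.26 in cluster 20, which was not among the 14. In NK cell-like cells Ccl3 ranged from 2.45 to 3.84, Ccl4 from 2.77 to 4.43 and Ccl5 from 0.05 to 2.52, and T cell-like Ccl4 from -5.60 to -1.03. Of 116 recomputed values for resident cells and monocytes, 79 left the counting interval (or, for counts of genes, moved by over 1.5 times), and the cause was not tested. With every deposited barcode kept the log2 ratio was in monocytes Ccl3 1.22, Ccl4 0.95, Ccl5 -0.99 and Ccr1 -0.033. With a stricter cell filter (500 to 5000 genes, at most 10% mitochondrial counts) the log2 ratio was in resident cells Ccl3 2.99, and in monocytes Ccl3 1.71, Ccl4 1.67, Ccl5 -0.26 and Ccr1 -0.26. At Leiden resolution 0.5, where resident cells went from 160 to 819 in WT and from 128 to 319 in KO and WT monocytes from 716 to 75 (81 with every barcode), the log2 ratio was in resident cells Ccl3 2.17, Ccl4 3.17 and Ccl5 1.31, and in monocytes Ccl3 1.204, Ccl4 0.89, Ccl5 -1.03 and Ccr1 -0.037. At Leiden resolution 2 the log2 ratio was in resident cells Ccl3 2.95, Ccl4 3.50 and Ccl5 1.87, and in monocytes Ccl4 1.41, Ccl5 -0.9996 and Ccr1 -0.24. With CC chemokine genes allowed as variable genes the log2 ratio was in resident cells Ccl3 2.95 and Ccl4 3.52, and in monocytes Ccl4 1.45 and Ccl5 -1.12. With each library clustered alone the log2 ratio was in resident cells Ccl3 1.97, Ccl4 2.59, Ccl5 1.53 and Ccr1 -0.12, and in monocytes Ccl3 1.53, Ccl4 1.04 and Ccr1 -0.11. With cells classed by their highest marker score the log2 ratio was in resident cells Ccl3 2.28, Ccl5 1.85 and Ccr1 -0.14, and in monocytes Ccl3 1.57, Ccl4 1.68 and Ccr1 -0.12. Without the 5 top cells of each library the log2 ratio was in resident cells Ccl4 3.35 and Ccl5 2.66, and in monocytes Ccl4 1.34 and Ccl5 -1.38. Relative to the median ratio of all genes the log2 ratio was in resident cells Ccl3 2.97, Ccl4 3.29 and Ccr1 0.44, and in monocytes Ccl3 1.99, Ccl4 1.42, Ccl5 -0.60 and Ccr1 -0.25. Without the top 3% of Scrublet scores the log2 ratio was in resident cells Ccl3 2.88 and Ccl4 3.19. Without mitochondrial and immunoglobulin UMIs in the totals, each log2 ratio in resident cells and monocytes stayed within its counting interval. The remaining alternatives were chosen after seeing the data. All cells with at least 3 C1q UMIs (539 WT, 295 KO), whatever their class, were taken in place of the resident class. There the log2 ratio was Ccl3 2.04, Ccl4 2.84, Ccl5 1.27 and Ccr1 -0.083. With the intermediate cluster counted as resident the log2 ratio was in resident cells Ccl3 1.85, Ccl4 2.26 and Ccr1 -0.030. With it counted as monocyte the log2 ratio was in monocytes Ccl3 1.58, Ccl4 1.86, Ccl5 0.19 and Ccr1 -0.28. In monocyte cluster 1 alone it was Ccl3 0.94, Ccl4 2.43, Ccl5 0.42 and Ccr1 -0.11. In monocyte cluster 4 alone it was Ccl3 1.03, Ccl4 1.43, Ccl5 2.54 and Ccr1 -0.038. With at least 200 UMIs, 61 genes (3.90%) were past 2-fold higher and 66 (4.22%) lower in resident cells and 138 (3.32%) and 201 (4.84%) in monocytes, where at least 20 UMIs gave 3.83%, 10.0%, 3.11% and 8.72%, and with a prior of 10 CPM 156 and 264, and 128 and 196, against 283 and 742, and 290 and 814. Fewer genes were tested at 200 UMIs. No paired analysis was possible because each genotype had 1 library, and no library could be left out for the same reason. Class boundaries, the 1 library behind each genotype and the small NK cell-like and intermediate groups limit these values, and shallow classes such as neutrophil-like cells limit what a share of cells can show.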

Other observations

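The intermediate cluster held more of the KO library than of the WT library, 5.53% against 0.616% of cells, and carried 14.7% of KO Ccl4 UMIs against 2.61% of WT Ccl4 UMIs. Its Ccl4 was found in 43.8% of 16 WT and 67.4% of 135 KO cells thinned to 1000 UMIs. Ccr1 stood there at 435 CPM (325 to 570.04) in WT against 353 CPM (325 to 384) in KO.

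The unnamed cluster led by Serpinb2, Ccr3 and Retnlg held 7.70% of WT and 16.2% of KO cells. Its Ccl3 level was 982 CPM (844 to 1135) in WT against 1777 CPM (1658 to 1904) in KO, and 143 of its 200 WT and 210 of its 408 KO cells held under 1000 UMIs.

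The unnamed cluster led by Icos, Rora and Tnfsf11, which raised 9 of 10 T cell markers, held 101 Ccl5 UMIs in 72 WT cells and 13 in 47 KO cells. The log2 ratio was -2.94 (-3.90 to -2.10), and 5 cells carried 72.3% of the WT UMIs.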
